A study of Mus musculus with 6 samples.

Results

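The genes described here are the protein-coding genes of the deposited expression table whose names begin with the stems of known cell division and DNA replication families, such as Cenp, Kif, Cdc, Aurk, Plk, Mcm and Orc. Of the 2195 genes in the table, 45 met this rule and are called members. The table came from RNA-Seq of whole colon flushed with PBS, taken from Gab1IEC-KO mice (VillinCre Gab1fl/fl) and from their Gab1fl/fl littermates, which the sample labels call WT. Gab1 encodes an adaptor protein of growth factor and cytokine receptors, and Villin-driven Cre deletes it from intestinal epithelial cells while other cells of the colon wall keep it. Both groups held 3 mice of 8 to 10 weeks, both carried the floxed Gab1 alleles and both drank 3% dextran sulfate sodium (DSS), which injures the colonic epithelium, for 7 days. No mice without DSS were part of the comparison, and Gab1 is not among the genes of the table, so its deletion could not be checked here. Values are normalized counts, that is, read numbers per gene that the authors scaled by 1 factor per library.

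A cell enters mitosis when cyclin B and its kinase become active. Aurora and Polo-like kinases then help to build the spindle, kinesin motors move microtubules and chromosomes, and the kinetochore ties each chromosome to the spindle. A checkpoint built on the Bub and Ttk kinases holds back Cdc20, the activator of the anaphase-promoting complex, until every chromosome is attached. In the colon, dividing cells lie mainly in the lower part of the crypts, and division of crypt cells rebuilds the epithelium after injury. Germinal centers of lymphoid follicles and infiltrating cells also divide, and whole tissue does not separate these sources.

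The rule named genes of mitosis and of DNA replication, but the replication families had no listed gene. Of 42 annotated genes of the Mcm, Gins, Orc, Rfc, Pol and Rrm replication families, 0 were listed, and 0 of 8 E2f, 0 of 11 Fanc and 0 of 11 Rad5 genes were listed. Several mitosis genes named by the rule, Top2a, Incenp, Nuf2, Kif11 and Kif23 among them, were likewise not listed. Every listed gene had an unadjusted p under 0.05 in the deposited comparison of these same 6 libraries, so a gene that is not listed had a larger p, was not tested or is not analysed here. In all, 45 of 246 annotated protein-coding genes that fit the rule were listed (18.3%), against 12.2% of the 16716 genes that entered the deposited adjustment. These shares have unlike bases: how many of the 246 were tested is unknown, and the 16716 are not limited to protein-coding genes. Because listed genes were chosen by that deposited p, no test of a member against these libraries is independent of how it came to be listed.

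By known function, 35 members act in mitosis or are tied to proliferation, among them Brca2 (DNA repair) and Cdca7 (S phase). The other 10 were set apart as transport kinesins, signalling kinases and Tacc1, although some of these may also act in cell division. This division was made after the values had been seen, and all 7 higher members fell among these 10. All 35, called mitosis members, had a lower mean level in Gab1IEC-KO colons, with log2 differences between -1.78 and -0.73 and a median of -1.28. The 10 others were mixed, with 7 higher and 3 lower, so the shared direction of the 35 depends in part on the division. Over the whole table the balance ran the other way, with 1536 genes higher and 659 lower and a median log2 difference of 0.79. In bulk tissue, fewer cells of a kind and less RNA per cell cannot be told apart.

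**Figure D1:**
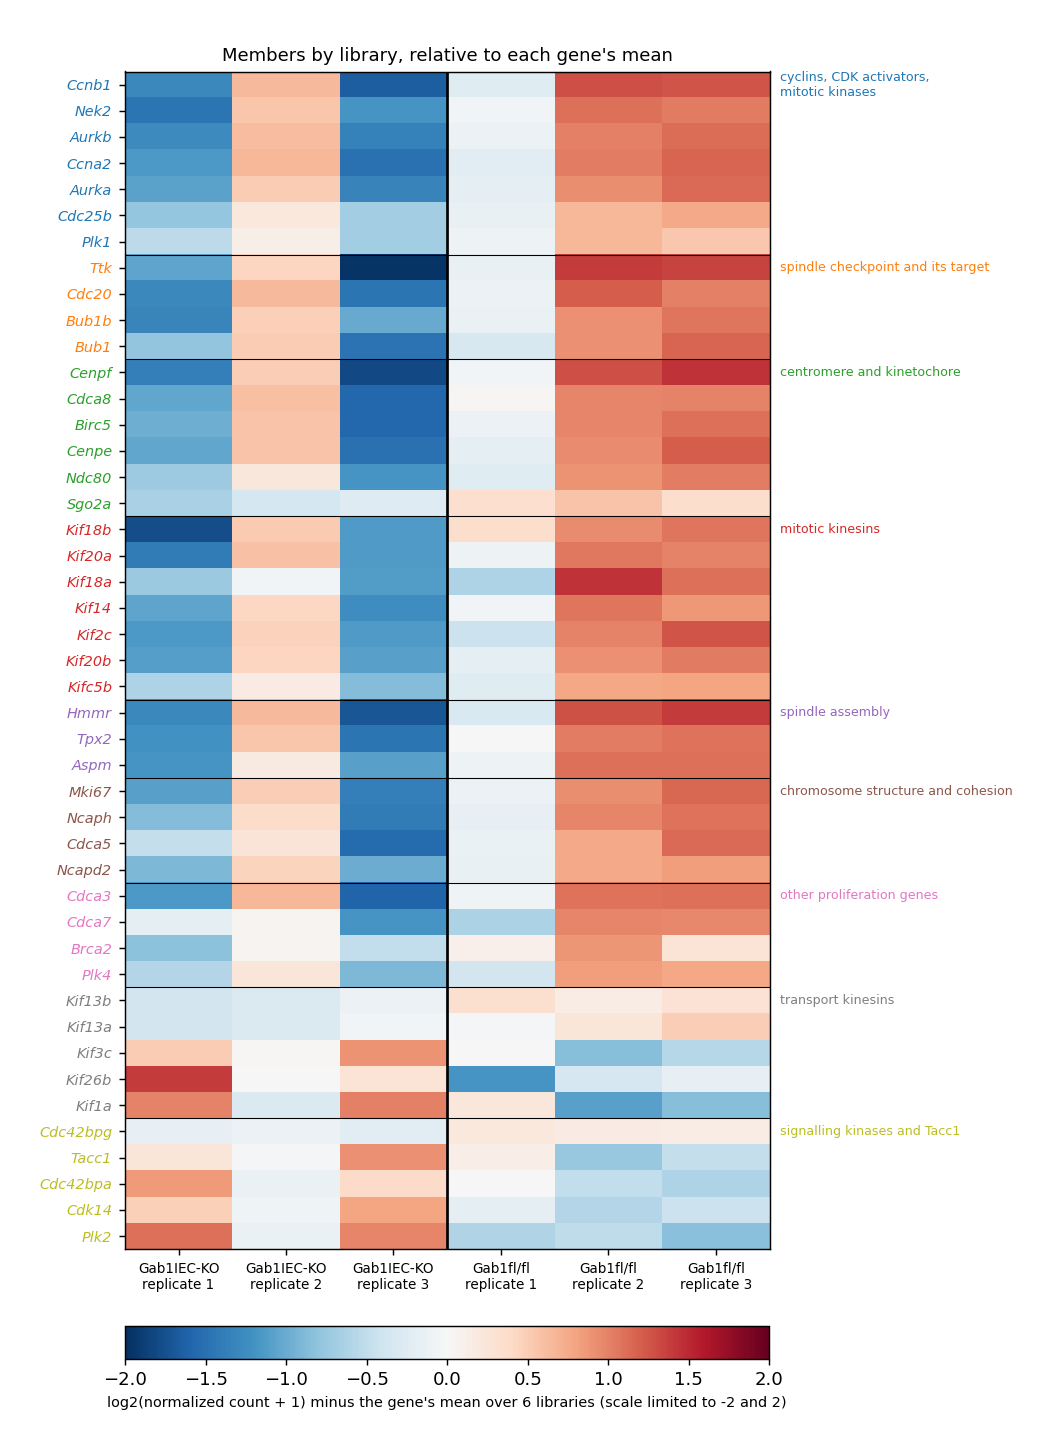
Each row is 1 of the 45 members, colored and grouped by role, and each column is 1 mouse. Color gives log2(normalized count + 1) minus the mean of that gene over the 6 libraries, and the blocks of mitosis genes are bluest in Gab1IEC-KO replicates 1 and 3 and reddest in Gab1fl/fl replicates 2 and 3.

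Promoters of genes that peak in G2 and mitosis are known for repeated CCAAT boxes and for the cell cycle homology element, searched here as TTTGAA. The element was also searched in its second spelling, TTCGAA. RefSeq start sites (build GRCm38.p6) were matched for 31 of the 35 mitosis members and 7 of the 10 others. The 120 bases before the start site are printed for 7 members. Of these, 5 hold CCAAT boxes there and Mki67 a pair of TTTGAA elements. Mki67 also has 3 CCAAT boxes, which lie farther from the start site than the bases printed. The last is Sgo2a, whose levels differed most in pattern from the rest. Capitals mark CCAAT boxes, read as ATTGG where the box lies on the other strand. They also mark TTTGAA. Each runs 5′ to 3′ on the strand of the gene. Those of Plk1 (chr7:122159315-122159434) and Sgo2a (chr1:57995854-57995973) are from the plus strand. Those of Hmmr (chr11:40733438-40733557), Cdc20 (chr4:118437344-118437463), Bub1 (chr2:127831860-127831979), Aurka (chr2:172370571-172370690) and Mki67 (chr7:135716380-135716499) are from the minus strand.
Hmmr: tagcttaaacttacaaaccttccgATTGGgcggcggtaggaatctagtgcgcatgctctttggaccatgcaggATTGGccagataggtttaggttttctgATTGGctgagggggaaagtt
Cdc20: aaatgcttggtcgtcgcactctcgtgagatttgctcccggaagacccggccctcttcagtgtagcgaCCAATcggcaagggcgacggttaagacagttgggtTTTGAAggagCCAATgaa
Bub1: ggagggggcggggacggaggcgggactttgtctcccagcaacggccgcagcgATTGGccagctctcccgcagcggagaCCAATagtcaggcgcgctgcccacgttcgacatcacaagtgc
Aurka: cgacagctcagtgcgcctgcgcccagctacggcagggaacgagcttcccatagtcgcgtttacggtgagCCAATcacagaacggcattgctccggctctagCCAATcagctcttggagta
Plk1: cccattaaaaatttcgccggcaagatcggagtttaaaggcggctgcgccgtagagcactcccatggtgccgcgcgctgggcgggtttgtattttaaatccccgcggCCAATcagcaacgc
Mki67: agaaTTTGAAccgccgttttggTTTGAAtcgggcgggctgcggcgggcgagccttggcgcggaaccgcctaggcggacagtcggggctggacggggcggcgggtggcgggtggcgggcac
Sgo2a: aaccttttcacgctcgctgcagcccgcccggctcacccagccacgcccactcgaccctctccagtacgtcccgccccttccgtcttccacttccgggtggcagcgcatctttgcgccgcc

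Within 250 bases before the start, on either strand, CCAAT was present in 20 of 31 mitosis windows (64.5%), against 36.1% of 16521 promoters. At least 2 CCAAT boxes were present in 14 of 31 (45.2%), against 11.8% of all promoters, a count chosen after the values had been seen. Among 356 promoters of listed genes that were lower in Gab1IEC-KO colons but are no members, 40.2% held CCAAT. Either spelling of the homology element was found in 7 of 31 mitosis windows (22.6%), against 15.6% of all promoters, and an E2F motif (TTTCGCGC or the related TTTGGCGC) in 2 of 31, against 0.872%. Of the 7 other members, 1 held CCAAT (14.3%) and 2 held either spelling of the homology element (28.6%). That element was found in 18.5% of the 356 promoters of listed lower genes that are no members. These are letter matches and no test was made of them. For some members the RefSeq start lies far from that of the gene in GENCODE M21, 3867 bases for Kif2c, 2394 for Cdca8 and 40061 for Cdk14, and also for Kif14 and Cdca3, so their windows may not be those in use.

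Cyclins and mitotic kinases were measured in 7 members, all lower in Gab1IEC-KO colons (median log2 difference -1.32). Ccnb1, cyclin B1, had 143, 554 and 111 normalized counts in Gab1IEC-KO colons, against 297, 865 and 841 in Gab1fl/fl colons (log2 difference -1.53 ± 0.67, SE; limma, adjusted p = 0.695). Gab1IEC-KO replicate 2 lay above Gab1fl/fl replicate 1, so the groups overlapped. Aurka, Aurora kinase A, which acts at centrosomes and spindle poles, had 96.5, 290 and 80.3 normalized counts in Gab1IEC-KO colons, against 181, 390 and 447 in Gab1fl/fl colons. Its log2 difference was -1.26 ± 0.57 (SE; limma, adjusted p = 0.711), and the same pair of libraries overlapped. Nek2, a kinase of centrosome separation, had 114, 459 and 138 normalized counts in Gab1IEC-KO colons, against 302, 670 and 645 in Gab1fl/fl colons (log2 difference -1.39 ± 0.58, SE; limma, adjusted p = 0.669). Aurkb, Ccna2, Cdc25b and Plk1 had log2 differences of -1.33, -1.32, -0.85 and -0.73, none past an unadjusted p of 0.05, which among the genes of this group only Nek2 passed. In each of the 7 genes Gab1IEC-KO replicate 2 exceeded Gab1fl/fl replicate 1.

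**Figure D2:**
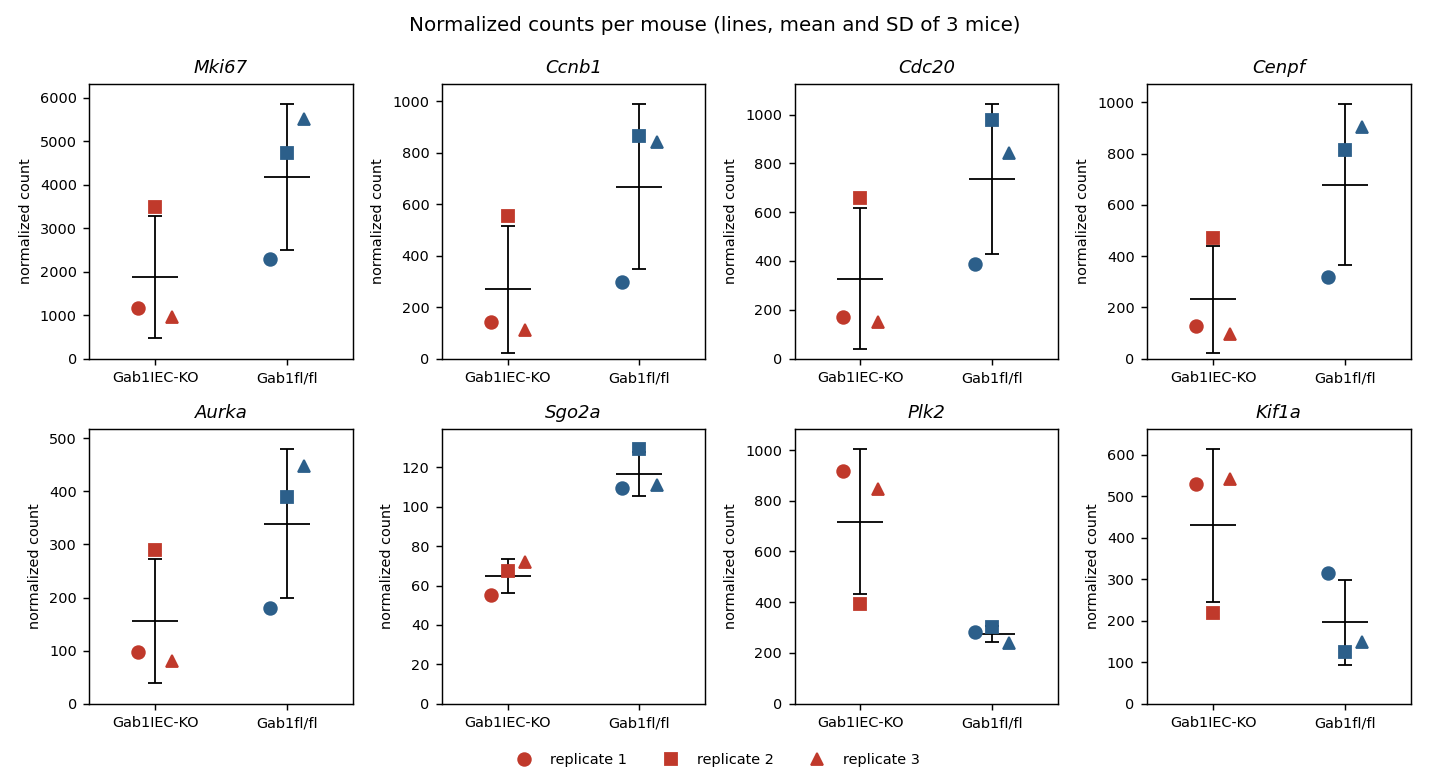
Each panel gives the normalized count of 1 gene on the y axis, from 0, for Gab1IEC-KO and Gab1fl/fl colons, with a symbol for each replicate and lines for the mean and SD of 3 mice. In Mki67, Ccnb1, Cdc20, Cenpf and Aurka, replicate 2 of the Gab1IEC-KO group lies above replicate 1 of the Gab1fl/fl group, whereas Sgo2a and Plk2 do not overlap between groups.

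In all 4 checkpoint genes, too, Gab1IEC-KO replicate 2 exceeded Gab1fl/fl replicate 1. Ttk, the kinase that starts checkpoint signalling, had 43.5, 125 and 22.8 normalized counts in Gab1IEC-KO colons, against 82.3, 242 and 236 in Gab1fl/fl colons (log2 difference -1.72 ± 0.69, SE; limma, adjusted p = 0.645). Cdc20 had 172, 660 and 151 normalized counts in Gab1IEC-KO colons, against 389, 976 and 843 in Gab1fl/fl colons (log2 difference -1.40 ± 0.61, SE; limma, adjusted p = 0.693). The checkpoint kinases Bub1b and Bub1 had log2 differences of -1.23 and -1.17. Of these 4 genes only Ttk passed an unadjusted p of 0.05.

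Of 6 centromere and kinetochore members, 2 passed that threshold. Cenpf, a protein of the outer kinetochore, had 128, 471 and 94.9 normalized counts in Gab1IEC-KO colons, against 319, 812 and 905 in Gab1fl/fl colons. Its log2 difference of -1.78 ± 0.66 was the largest among the members (SE; limma, adjusted p = 0.603). Sgo2a, shugoshin 2A, which protects cohesin at centromeres, had 55.2, 67.4 and 72.1 normalized counts in Gab1IEC-KO colons, against 109, 129 and 111 in Gab1fl/fl colons (log2 difference -0.84 ± 0.32, SE; limma, adjusted p = 0.617). It showed little spread within either group, and all Gab1IEC-KO values lay below all Gab1fl/fl values. Cdca8 and Birc5, both of the chromosomal passenger complex, Cenpe, a kinetochore motor, and Ndc80, which binds microtubules, had log2 differences of -1.33, -1.31, -1.31 and -1.12, with overlap between groups.

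The 7 mitotic kinesins were all lower (median log2 difference -1.24). Kif18b, a motor of microtubule plus ends, had 25.5, 128 and 40.1 normalized counts in Gab1IEC-KO colons, against 114, 173 and 188 in Gab1fl/fl colons (log2 difference -1.59 ± 0.60, SE; limma, adjusted p = 0.61). Kif14, which acts in cytokinesis, had 56.2, 157 and 49.2 normalized counts in Gab1IEC-KO colons, against 112, 246 and 215 in Gab1fl/fl colons (log2 difference -1.24 ± 0.54, SE; limma, adjusted p = 0.692). Kif20a, Kif18a, Kif2c, Kif20b and Kifc5b lay between -1.30 and -0.88 and did not pass. Kifc5b is nearly identical to Kifc1, so its reads may be shared and its level is uncertain.

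Among the spindle assembly genes, Aspm and Tpx2 passed and Hmmr did not. Aspm, a protein of spindle poles, had 99.7, 256 and 106 normalized counts in Gab1IEC-KO colons, against 212, 486 and 487 in Gab1fl/fl colons (log2 difference -1.40 ± 0.50, SE; limma, adjusted p = 0.581), the lowest p among the mitosis members. Tpx2, an activator of Aurora kinase A, had 174, 598 and 147 normalized counts in Gab1IEC-KO colons, against 406, 819 and 860 in Gab1fl/fl colons (log2 difference -1.41 ± 0.57, SE; limma, adjusted p = 0.647). Hmmr, a spindle protein and hyaluronan receptor, had 96.5, 373 and 72.1 normalized counts in Gab1IEC-KO colons, against 194, 577 and 629 in Gab1fl/fl colons (log2 difference -1.58 ± 0.70, SE; limma, adjusted p = 0.699).

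Genes of chromosome structure included the proliferation marker Mki67, which coats mitotic chromosomes. It had 1171, 3482 and 960 normalized counts in Gab1IEC-KO colons, against 2283, 4733 and 5502 in Gab1fl/fl colons (log2 difference -1.31 ± 0.53, SE; limma, adjusted p = 0.648). Ncaph, a condensin subunit, had 105, 246 and 72.1 normalized counts in Gab1IEC-KO colons, against 171, 378 and 409 in Gab1fl/fl colons (log2 difference -1.27 ± 0.54, SE; limma, adjusted p = 0.691). Cdca5 (sororin) and the condensin subunit Ncapd2 had log2 differences of -1.17 and -0.96. The 4 remaining proliferation genes, Cdca3, Cdca7, Brca2 and Plk4, had differences between -1.39 and -0.83 and none passed. Brca2, a DNA repair gene, was the only mitosis member besides Sgo2a without overlap, with 50.9, 94.0 and 63.9 normalized counts in Gab1IEC-KO colons, against 97.3, 167 and 109 in Gab1fl/fl colons.

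Per kilobase of gene length, mean levels of the mitosis members ran from 4.53 to 283 normalized counts in Gab1IEC-KO colons, against 9.12 to 468 in Gab1fl/fl colons. Kif18a was the lowest in Gab1IEC-KO colons and Brca2 the lowest in Gab1fl/fl colons, while Plk1 was the highest in both groups. The lowest count of any mitosis member in any library was 22.8, for Ttk, so none of these levels rests on a handful of reads.

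**Figure D3:**
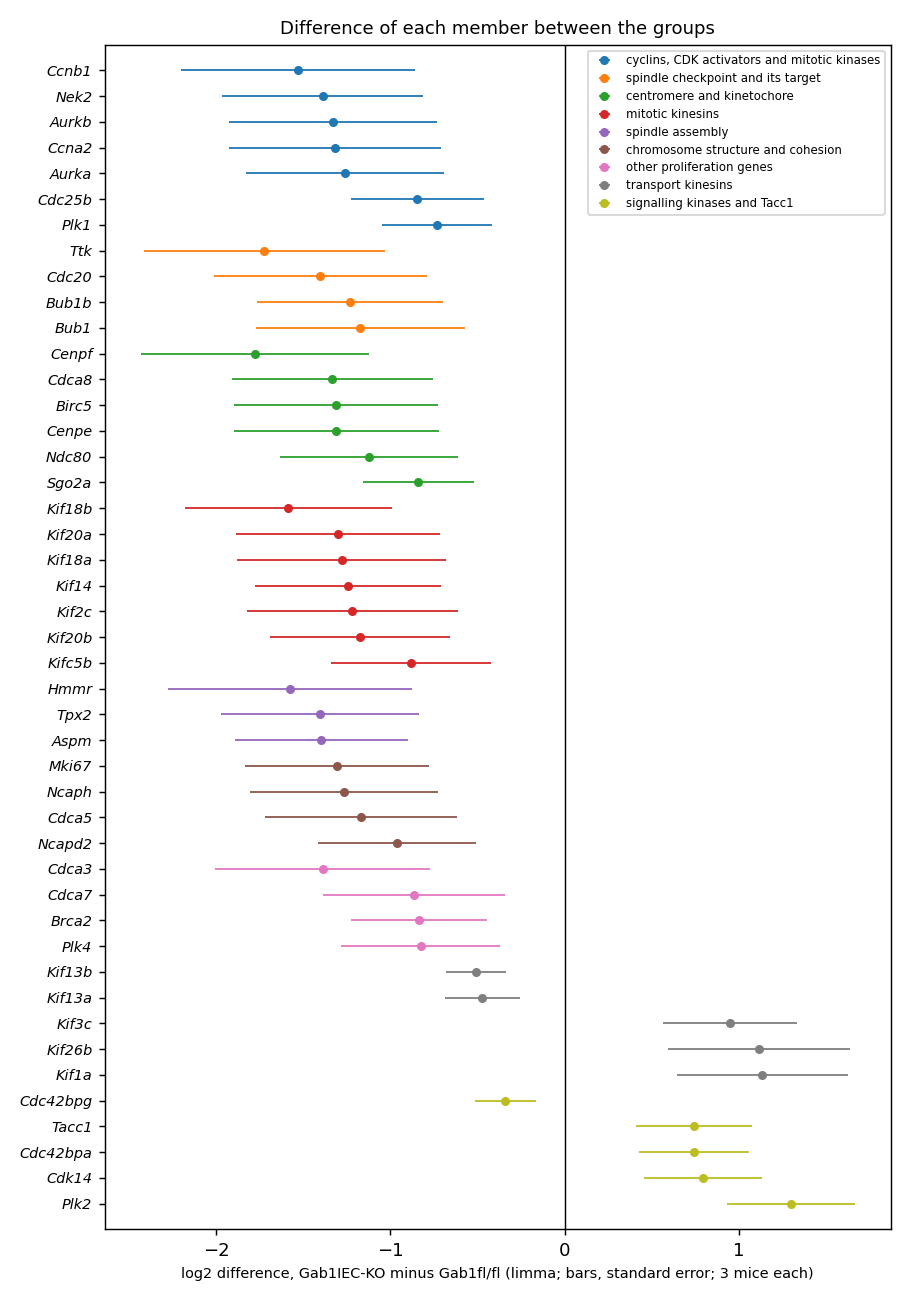
The x axis gives the log2 difference of each member, Gab1IEC-KO minus Gab1fl/fl, from limma on 3 mice each, with bars for the standard error and colors for role. All 35 mitosis genes lie left of 0, between -1.78 and -0.73, and 7 of the 10 others lie right of it.

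At an unadjusted p under 0.05 by limma, 11 members were lower, 10 of them mitosis genes, and 4 were higher. Of all listed genes, 14.9% were lower and 40.0% were higher at that threshold. After Benjamini-Hochberg adjustment over 16716 genes, 0 members passed, with the lowest adjusted p 0.581 among mitosis members (Aspm) and 0.462 among all members (Plk2). On the recovered reads, edgeR called 5 members lower and 4 higher at an unadjusted p under 0.05, and DESeq2 called 19 lower and 5 higher. Among all 2195 listed genes, edgeR called 310 lower and 894 higher, and DESeq2 called 353 lower and 1052 higher. The count of mitosis members past limma's threshold turned on single mice. It was 33 without Gab1IEC-KO replicate 2 and 34 without Gab1fl/fl replicate 1, but 0 without Gab1IEC-KO replicate 1, 1 without Gab1IEC-KO replicate 3, and 0 without either Gab1fl/fl replicate 2 or 3. Among all listed genes, limma called 328 lower with all mice, 320 without Gab1IEC-KO replicate 2 and 416 without Gab1fl/fl replicate 1. It called 179 and 226 lower without Gab1IEC-KO replicates 1 and 3, and 168 and 143 without Gab1fl/fl replicates 2 and 3. No member changed direction in any of these fits, and the median log2 difference of mitosis members ran from -1.83 to -0.92.

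The groups overlapped because mice of a group differed. The mean log2(normalized count + 1) of the 35 mitosis members was 6.89, 8.30 and 6.66 in Gab1IEC-KO replicates 1, 2 and 3, against 7.75, 8.89 and 8.92 in Gab1fl/fl replicates 1, 2 and 3. Gab1IEC-KO replicate 2 thus stood above Gab1fl/fl replicate 1, and did so in 33 of the 35 genes, against 156 of the 659 listed genes that were lower in Gab1IEC-KO colons. Gab1IEC-KO replicate 2 was the highest of its group in 34 genes, and Gab1fl/fl replicate 1 the lowest of its group in 35. Both held together in 34 of 35 mitosis members (97.1%), against 35.7% of those 659 genes. Gab1fl/fl replicates 2 and 3 exceeded all Gab1IEC-KO libraries in 35 of 35 genes, a share close to that of all listed lower genes (95.1%). Groups did not overlap in 2 of 35 mitosis members, against 423 of the 659 listed lower genes, which are 19.3% of all listed genes. This order of libraries was noticed in the data and is a description.

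**Figure D4:**
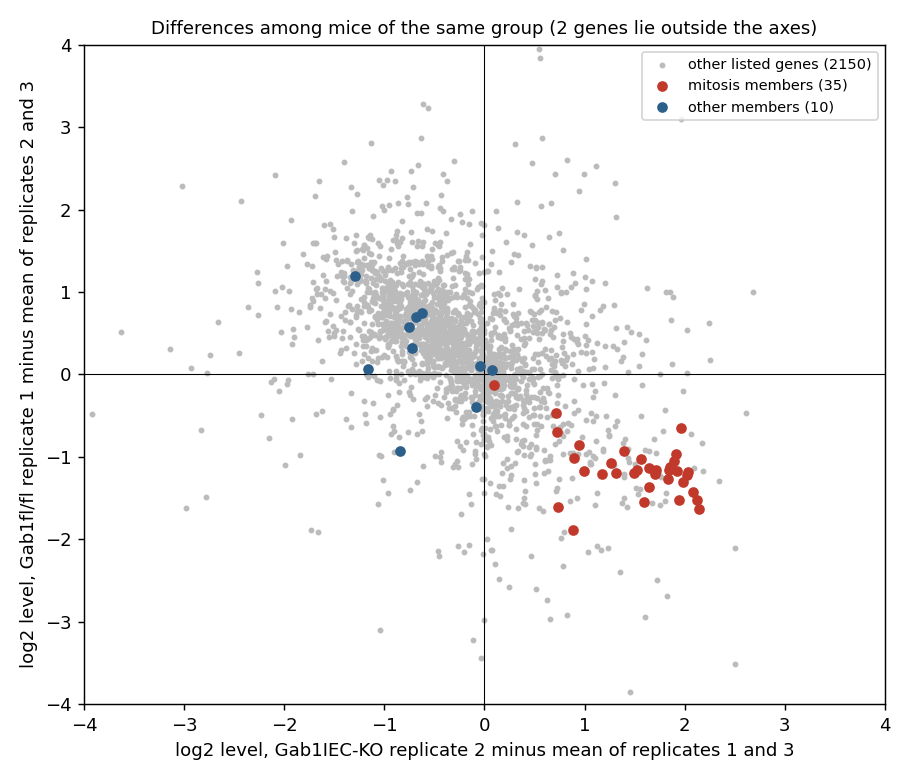
The x axis gives the log2 level of Gab1IEC-KO replicate 2 minus the mean of replicates 1 and 3, and the y axis that of Gab1fl/fl replicate 1 minus the mean of replicates 2 and 3, with 1 point for each listed gene. The 35 mitosis members lie at the lower right, with medians of 1.64 and -1.17, while 2 of the 2195 genes fall outside the axes.

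Across the 6 libraries the mitosis members varied together. The correlation of each with the mean of the other 34 had a median of 0.99 and exceeded 0.9 in 32 of 35, and over deviations from the group means the median was 0.98. Ccnb1 and Hmmr lay nearest to the mean of the others (both 0.998), and Sgo2a lay farthest (0.72, and 0.28 within groups). These points share libraries, and the correlations are descriptions over 6 mice. Among listed genes that are no members, the closest to the mitosis mean were Ccdc18, Ccnf and Ckap2, with correlations of 0.999, 0.997 and 0.996. Gpx2, an epithelial glutathione peroxidase, stood among the 12 closest, with 3727, 8698 and 3601 normalized counts in Gab1IEC-KO colons, against 6910, 11468 and 11467 in Gab1fl/fl colons.

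The 10 members set apart from the mitosis members had other patterns. Plk2, a stress-induced Polo-like kinase, had 917, 391 and 846 normalized counts in Gab1IEC-KO colons, against 281, 300 and 239 in Gab1fl/fl colons (log2 difference 1.30 ± 0.37, SE; limma, adjusted p = 0.462). The groups did not overlap, and Gab1IEC-KO replicate 2 was the lowest of its group. Cdk14, a cyclin-dependent kinase of Wnt signalling, had 235, 158 and 292 normalized counts in Gab1IEC-KO colons, against 147, 112 and 125 in Gab1fl/fl colons (log2 difference 0.79 ± 0.34, SE; limma, adjusted p = 0.688). Kif3c, a transport kinesin, had 166, 118 and 216 normalized counts in Gab1IEC-KO colons, against 115, 64.1 and 77.6 in Gab1fl/fl colons (log2 difference 0.95 ± 0.38, SE; limma, adjusted p = 0.649).

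Cdc42bpa, a kinase that binds Cdc42, had 1451, 731 and 1043 normalized counts in Gab1IEC-KO colons, against 805, 566 and 519 in Gab1fl/fl colons (log2 difference 0.74 ± 0.32, SE; limma, adjusted p = 0.691), with overlap. The other 3 higher members did not pass. Kif1a, a motor for vesicles in neurons, had 530, 218 and 541 normalized counts in Gab1IEC-KO colons, against 314, 125 and 148 in Gab1fl/fl colons. Tacc1, of the transforming acidic coiled-coil family, had 1461, 1197 and 2317 in Gab1IEC-KO colons, against 1347, 730 and 882 in Gab1fl/fl colons. Kif26b was scarce, with 53.0, 19.4 and 23.7 normalized counts in Gab1IEC-KO colons, against 8.03, 15.3 and 17.2 in Gab1fl/fl colons. Kif26b, Plk2, Cdk14 and Kif3c did not overlap between groups, 4 of the 7 (57.1%), against 943 of the 1536 listed higher genes (61.4%), which are 43.0% of all listed genes. In all 7 higher members Gab1IEC-KO replicate 2 was the lowest of its group, as it was in 68.1% of all listed higher genes.

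Lower among the members set apart were Kif13b, Kif13a and Cdc42bpg, and none overlapped between groups, as was so for 64.2% of all listed lower genes. Kif13b, a kinesin that carries membrane cargo, had 2638, 2787 and 3114 normalized counts in Gab1IEC-KO colons, against 4229, 3750 and 4155 in Gab1fl/fl colons (log2 difference -0.51 ± 0.17, SE; limma, adjusted p = 0.554). Kif13a and Cdc42bpg had log2 differences of -0.47 and -0.34 and did not pass. Their changes were smaller than those of the mitosis genes, but so was the spread among mice of a group.

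Other genes of the cell cycle were read from lists written from general knowledge, some of which share genes with the members or with each other. Of 54 genes of a G2/M list, 28 were listed, 18 of them members, and all 28 were lower (9 by limma at an unadjusted p under 0.05). Without the members, 10 of 36 were listed and all were lower, such as Dlgap5 and Ect2 (log2 differences -1.67 and -1.31). Of 43 genes of an S phase list, 1 was listed, the member Cdca7. Of 15 genes of the anaphase-promoting complex and mitotic exit, 2 were listed and both were lower: Espl1, the protease separase, and Ube2c, a ubiquitin-conjugating enzyme of that complex. Of 28 spindle and cytokinesis genes 8 were listed and lower, 2 of them past the threshold (Knstrn and Racgap1). Cohesin and SMC genes gave 3 of 16, all lower with none past it, of which Cdca5 is a member and Esco2 is also among the spindle and cytokinesis genes. DNA damage and repair genes gave 2 of 26, Eme1 and H2afx, both lower. Single mice decided these counts too. Genes past the threshold numbered 27 in the G2/M list without Gab1IEC-KO replicate 2 and 26 without Gab1fl/fl replicate 1, and 8 in the spindle and cytokinesis list without either of these mice. In both lists, and in that of the anaphase-promoting complex, 0 passed when any of the other 4 mice was left out, and in the repair list 1 passed. Of 23 G1 cyclins, inhibitors and pocket proteins only Ccnd2 was listed, with 5434, 4391 and 4976 normalized counts in Gab1IEC-KO colons, against 2897, 3285 and 3755 in Gab1fl/fl colons (log2 difference 0.58 ± 0.19, SE; limma, adjusted p = 0.527). Ccnd2 did not pass an unadjusted p of 0.05 without Gab1IEC-KO replicate 1 or without Gab1fl/fl replicate 2. Of 9 cell cycle transcription factors only Mybl1 was listed, with 46.7, 52.1 and 43.8 normalized counts in Gab1IEC-KO colons, against 113, 86.5 and 130 in Gab1fl/fl colons.

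Markers of several cell types also differed between the groups, and their part in the result was not tested. Fibroblast markers were listed for 10 of 11 genes, all higher, with summed normalized counts of 59453, 51544 and 92419 in Gab1IEC-KO colons, against 39066, 25141 and 29774 in Gab1fl/fl colons. Gab1IEC-KO replicate 2 had the lowest of its group and Gab1fl/fl replicate 1 the highest, the reverse of their places among the mitosis members. These places were common among all listed higher genes, at 68.1% for the first and 81.0% for the second, so they are not particular to fibroblast markers. Neutrophil markers gave 9 of 16, all higher, with sums of 3310 to 8311 in Gab1IEC-KO colons, against 778 to 1976 in Gab1fl/fl colons, and monocyte and macrophage markers gave 9 of 15, all higher.

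Markers of cell types that include dividing cells were mixed. Stem and transit-amplifying cell markers gave 8 of 19 listed, 6 lower and 2 higher. The 2 higher were Cd44, with 1318, 1628 and 1594 normalized counts in Gab1IEC-KO colons, against 1027, 1118 and 955 in Gab1fl/fl colons, and Prom1, with 12088, 4989 and 3197, against 5060, 3286 and 1545. The stem cell factor Ascl2 had 4.24, 0 and 0.912 normalized counts in Gab1IEC-KO colons, against 7.02, 19.3 and 44.0 in Gab1fl/fl colons, and the Wnt target Axin2 had 70.0, 84.8 and 82.1, against 94.3, 207 and 336. Gab1IEC-KO replicate 2 exceeded Gab1fl/fl replicate 1 in 4 of the 8 listed markers, Cd44, Rnf43, Hopx and Cdca7, and not in Ascl2, Axin2, Ephb3 or Prom1. Germinal center B cell markers gave 7 of 14, 6 of them lower. The higher one was Cxcl13, with 2606, 4581 and 8468 normalized counts in Gab1IEC-KO colons, against 2833, 1047 and 602 in Gab1fl/fl colons. B cell markers gave 4 of 13, all lower, with sums of 279 to 1009 in Gab1IEC-KO colons, against 1127 to 1437 in Gab1fl/fl colons. Epithelial markers gave 2 of 19, Cldn3 and Aqp8, both lower, and T cell markers 2 of 13, both higher. The labelled tissue holds the epithelial genes Cldn3 and Aqp8 at 2039 normalized counts or more in each library.

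**Figure D5:**
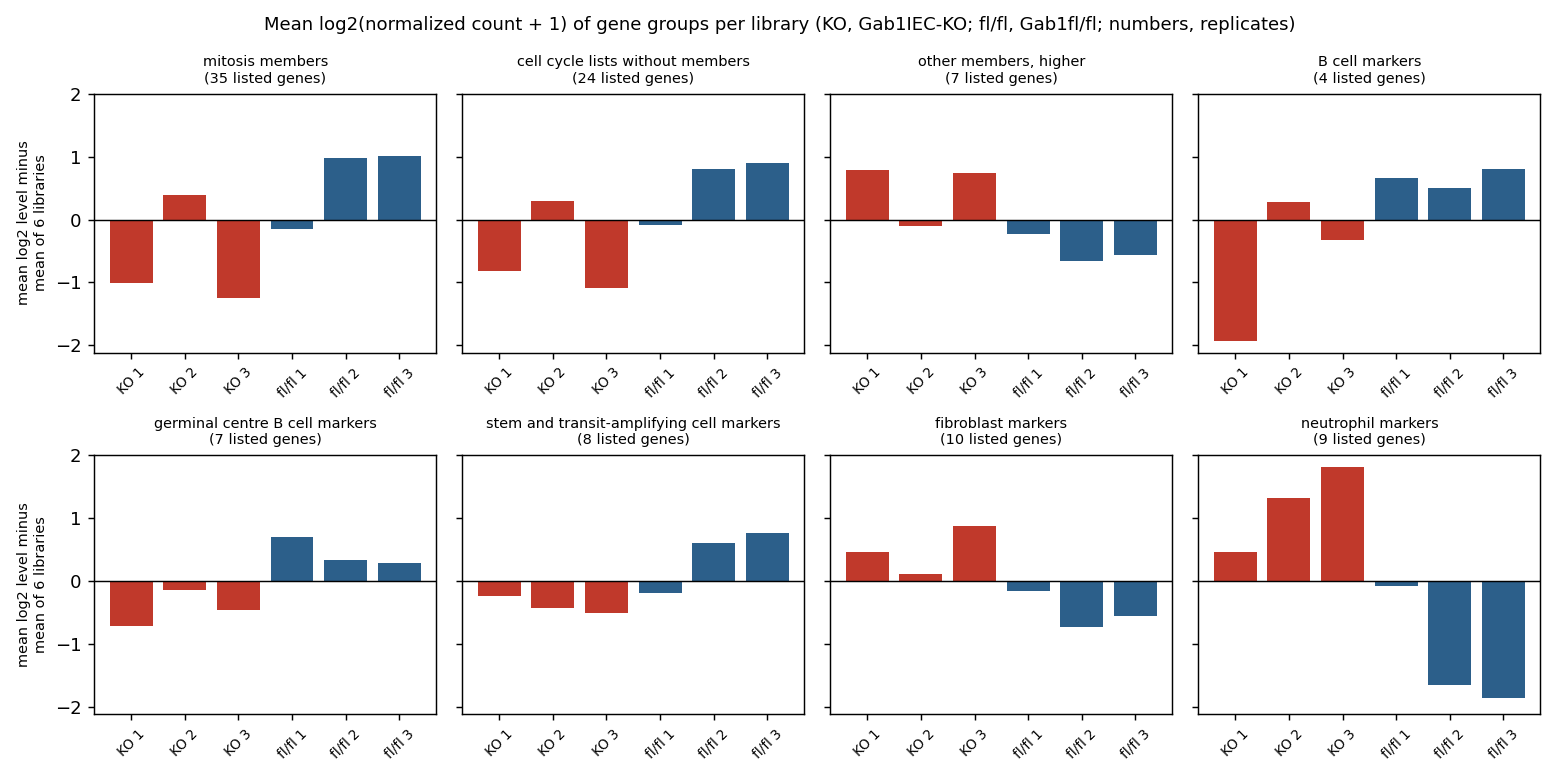
Bars give the mean log2(normalized count + 1) of each gene group in each library minus its mean over the 6 libraries, Gab1IEC-KO replicates to the left and Gab1fl/fl replicates to the right. The mitosis members and the other cell cycle genes share an order of libraries that the B cell and neutrophil markers do not follow. In the B cell and germinal center bars Gab1IEC-KO replicate 2 is likewise the highest of its group, but Gab1fl/fl replicate 1 is not the lowest of its group. The stem cell bars differ from the order of the mitosis members too, but they include Ascl2, which had 0 normalized counts in Gab1IEC-KO replicate 2. Gab1IEC-KO replicate 2 exceeded Gab1fl/fl replicate 1 in 4 of the 8 listed stem cell markers. In 3 of these 8 Gab1IEC-KO replicate 2 was the highest and Gab1fl/fl replicate 1 the lowest of its group. Bars without Ascl2 are not shown, so the panel does not say whether the other stem cell markers share the order. Among fibroblast markers, Gab1IEC-KO replicate 2 is the lowest and Gab1fl/fl replicate 1 the highest of its group, as in 68.1% and 81.0% of all listed higher genes.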

How the data were processed

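Colon RNA of 3 Gab1IEC-KO and 3 Gab1fl/fl mice was sequenced. Per the submitters' processing notes, the authors aligned reads with HISAT2 2.0.5 and counted them with featureCounts 1.5.0-p3. The notes name hg18, but the gene IDs and 43 of 45 member coordinates are those of mouse GRCm38 in GENCODE M21. The deposited values are a signal: the authors divided counts by a size factor per library. The deposited log2 fold changes and p-values are the authors' own comparison and were not used, except that the deposited p-values showed the filter at 0.05 and the 16716 genes adjusted. Values were whole multiples of 1 read within 0.01 for 100% of values in each library, so reads could be recovered. Library depth is unknown. The recovered reads of listed genes numbered 1957437 to 2787670 per library.

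limma 3.58.1 (R 4.3.3) was fitted to log2(value + 1) of all 2195 genes with a trended variance prior, on all 6 libraries, with two-sided tests. Fold changes on this scale understate those of low genes. As alternatives, edgeR 4.0.16 and DESeq2 1.42.0 were run on recovered reads with the deposited factors, and edgeR also with TMM. limma was also fitted with a pseudocount of 0.1, a mean count filter of 10, no trend, a replicate block and each mouse left out. An exact permutation of 3 against 3 cannot go below p = 0.1. Scripts were tested on simulated data. The members and gene lists were chosen with earlier results of these data known. Values in every library are given for members with an absolute log2 difference over 1 and an unadjusted p under 0.05, for all higher members, Aurka, and the members nearest to and farthest from the mean profile. Those of Cdc20, Brca2 and Kif13b, and of Gpx2, were added after their values were seen, as was the division into mitosis and other members. Nothing in the labels says more of the mice than their group. The p-values set each group difference against the spread among these samples, which limma moderates across genes.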

Additional observations from a re-analysis of the deposited data

How the results depend on the processing

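No member reversed direction in any alternative. Mitosis members lower at an unadjusted p under 0.05, 10 with limma on all mice, numbered 6 without the trend in the variance prior, 4 with edgeR, 18 with DESeq2 and 26 with edgeR and TMM. For all members, 11 lower became 6 without the trend, 5 with edgeR, 19 with DESeq2 and 29 with TMM, and 4 higher became 1 with TMM. Leaving out 1 mouse each gave 0 to 36 members lower, 1 to 7 higher, 0 to 34 mitosis members lower and 0 to 27 genes of the G2/M list lower, against 9 with all mice. In edgeR, TMM scaling on the listed genes moved their median log2 difference by -0.58, and calls then split into 282 higher and 643 lower, against 894 and 310 with the deposited factors. limma called 879 of all listed genes higher and 328 lower, and DESeq2 1052 higher and 353 lower. Without the trend limma called 863 higher and 267 lower, and with the replicate block 925 higher and 341 lower. With 1 mouse left out, limma called 394 to 1108 of all listed genes higher and 143 to 416 lower. With the replicate block, 28 members were lower, all of them mitosis genes, and 5 higher. Same-numbered mice did not deviate together in all 3 pairs (correlations 0.20, 0.30 and -0.14 over the listed genes). Gab1IEC-KO replicates 1 and 3 both lay closest to Gab1fl/fl replicate 1. Gab1IEC-KO replicate 2 lay closest to Gab1fl/fl replicate 2, with replicate 3 nearly as close (0.28). The labels give the numbers no meaning, so the block is not a paired analysis. The depth of whole libraries is unknown, and 3 mice a group limit what could be called.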
